A study of Mus musculus with 18 samples.

Results

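Rgs16 was followed in cultured mouse fat cells treated with growth hormone (GH). It is 1 of 8251 genes with their own symbol on the array, and 2 of 12422 mouse probe sets (94378_at and 161609_at) carry its symbol in the platform annotation. These were all the probe sets that the symbol matched, and both are described. The gene was singled out because earlier results of these data showed its RNA higher with GH at each of 3 times, so its GH minus control differences below are given as a description, with standard errors and no test. The arrays were Affymetrix MG_U74Av2 chips, which read each RNA through a set of short probes.

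The cells were 3T3-F442A adipocytes, fat cells made in culture from a mouse preadipocyte line. Groups were GH for 30 min, GH for 4 h, GH for 48 h, and a control at each of those times, with 3 arrays a group, 1 from each of 3 numbered experiments. GH dose, culture medium and the control treatment were not given in the sources used here. All arrays come from 1 cell line, and nothing in the labels says that the experiments were separate differentiations, so p-values cover only the spread among these arrays, which may be technical.

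The title and the description of 3 samples name different groups. In experiment 1, the array titled GH 30 min has GH 48 h in its description. In experiment 3, the array titled GH 4 h has GH 30 min there, and the array titled control 48 h has control 4 h. Groups follow the titles, which fill each group once per experiment. The GH minus control differences of Rgs16, its control differences against 30 min and the calls of other named genes are also given without these arrays. The changes of Rgs16 over time with GH, and the differences between its GH effects, are given only with all arrays. The deposited signals were already scaled to an equal trimmed mean on all 18 arrays. Of the adipocyte markers, 8 of 8 measured were above background on every array, led by Adipoq, the adiponectin gene, at 25550 to 38211. Of the preadipocyte or fibroblast markers 6 of 7 were too, all but Vim (15.3 to 146.2), so RNA of both marker lists was present. Whether it came from the same cells cannot be told in bulk RNA. Of the 6 macrophage markers, 1 was above background on every array (Cd68, 167.1 to 386.7), Csf1r (median 129.3) and Lyz2 (highest 312) were on some, and Adgre1, Itgam and Ptprc were below it throughout, with highest values of 96.6, 46.6 and 24. Background was taken as 105.6, the highest signal of 19 yeast and Bacillus control probe sets on any array.

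Regulators of G-protein signalling, the RGS proteins, end the signal of G-protein-coupled receptors: they speed the hydrolysis of GTP by G alpha subunits, which returns those subunits to the inactive state. RGS16 is a small member of the R4 subfamily that acts on the G alpha i and G alpha q classes. In adipocytes, receptors coupled to G alpha s raise cyclic AMP and drive lipolysis, and receptors coupled to G alpha i oppose this. GH itself signals through a cytokine receptor, JAK2 and STAT proteins and not through a G protein.

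The windows from 250 bases before to 50 bases after the annotated start of Rgs16 and of Rgs2, the other RGS gene that passed a threshold below, are shown because they are the stretches searched for motifs. Both are RefSeq sequences of GRCm38.p6, 5′ to 3′ on the strand of the gene. Rgs16 lies at chr1:153740103-153740402 on the plus strand and Rgs2 at chr1:144004100-144004399 on the minus strand. Capitals mark 3 motifs, each read on either strand. These are the GC box, with the letters GGGCGG, the promoter element known as the CCAAT box, and the short form of the cyclic AMP response element, with the letters TGACG.
Rgs16: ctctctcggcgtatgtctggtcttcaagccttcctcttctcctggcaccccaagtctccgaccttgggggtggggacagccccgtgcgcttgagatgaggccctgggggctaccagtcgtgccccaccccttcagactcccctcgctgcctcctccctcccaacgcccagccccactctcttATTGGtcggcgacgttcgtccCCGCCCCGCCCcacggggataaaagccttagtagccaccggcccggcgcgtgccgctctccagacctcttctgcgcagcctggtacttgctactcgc
Rgs2: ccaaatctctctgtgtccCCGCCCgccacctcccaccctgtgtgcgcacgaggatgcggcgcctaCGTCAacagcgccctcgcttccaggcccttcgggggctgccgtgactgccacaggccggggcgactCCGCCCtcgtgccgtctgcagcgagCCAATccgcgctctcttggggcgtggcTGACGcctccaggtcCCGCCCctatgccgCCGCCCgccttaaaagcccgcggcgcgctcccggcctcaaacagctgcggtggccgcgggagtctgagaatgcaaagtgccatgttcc

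The Rgs16 window was 66% G or C and that of Rgs2 70%, against a median of 52.7% over the 32851 RefSeq windows. Rgs16 held 2 GC boxes, both on the minus strand, at -47 and -42 from the start, which share 1 base, and 1 CCAAT box on the minus strand at -68. Rgs2 held 4 GC boxes, 2 TGACG motifs, at -185 and -67, and 1 CCAAT box. GC boxes occur in 35.7%, CCAAT boxes in 37.4% and TGACG in 20.8% of all windows. Neither window held the STAT motif TTCNNNGAA (in 8.30% of windows), the full cyclic AMP response element TGACGTCA (1.79%), the AP-1 motif TGANTCA (7.81%), the E-box CACGTG (7.15%) or TATAAA (13.6%). Of the 12 other RGS genes 10 had a window, and none of these held the STAT motif, and a motif outside these 300 bases was not searched for.

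After 30 min, Rgs16 was higher with GH on both probe sets and in each experiment. On 94378_at the signals of experiments 1, 2 and 3 were 2636.5, 2322.9 and 3049.6 with GH, against 920, 827.1 and 563.6 in the controls. On 161609_at they were 892.9, 788.5 and 1210.4 with GH, against 253.3, 296.3 and 208.6 in the controls. The GH and control arrays were far apart, and experiment 3 had both the highest GH signal and the lowest control signal. The GH minus control difference in log2 signal was 1.78 ± 0.24 on 94378_at and 1.82 ± 0.22 on 161609_at (± SE of the fit, n = 3 a group), with signal ratios of 2.81 to 5.41 and 2.66 to 5.80 over the experiments. These were the 6th and the 5th highest of 12422 differences at 30 min, where 5 probe sets (0.0403%) passed an adjusted p of 0.05 in limma, and 10 (0.0805%) with the experiment number as a block.

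After 4 h, Rgs16 was again higher with GH in each experiment, although the GH arrays lay below those of 30 min. On 94378_at the GH signals were 1251.2, 1198.6 and 1337.1, against 507, 496.5 and 346.2 in the controls. On 161609_at they were 377.8, 421.8 and 391.1 with GH, against 225.2, 163.1 and 121 in the controls. The 3 GH arrays were close together on both probe sets, and the controls of experiment 3 were again the lowest. The difference was 1.46 ± 0.24 on 94378_at and 1.15 ± 0.22 on 161609_at, the 17th and the 49th highest, with signal ratios of 2.41 to 3.86 and 1.68 to 3.23. At this time 15 probe sets (0.121%) passed without the block and 45 (0.362%) with it.

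After 48 h, GH arrays still carried several times the control signal. On 94378_at the signals were 1768.5, 2127.9 and 1198.5 with GH, against 461.5, 447 and 300.7 in the controls. On 161609_at they were 602.1, 728.1 and 463.8 with GH, against 132.5, 175.9 and 151 in the controls. Experiment 3 had the lowest GH signal on both probe sets, yet its 94378_at control was also the lowest, and the ratios stayed within 3.83 to 4.76 on 94378_at and 3.07 to 4.54 on 161609_at. The difference was 1.99 ± 0.24 on 94378_at and 1.79 ± 0.22 on 161609_at, the 11th and the 17th highest, beside 42 probe sets passing without the block (0.338%) and 158 with it (1.27%). Preadipocyte and fibroblast markers moved at the same time: 7 of 7 had lower means with GH at 48 h, with a median change of -0.74, against 0.02 over all genes, although only 1 passed, with the block alone (2 at an unadjusted p under 0.05). Their summed signal ranged from 11343 to 41917 with GH and from 23507 to 40189 in controls, and their part in the Rgs16 difference was not tested. Of the adipocyte markers, 3 of 8 had higher means with GH at 48 h, with a median change of -0.15. None of the 8 passed with or without the block (2 at an unadjusted p under 0.05). In bulk RNA, fewer cells of a type and less RNA per cell cannot be told apart.

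**Figure D1:**
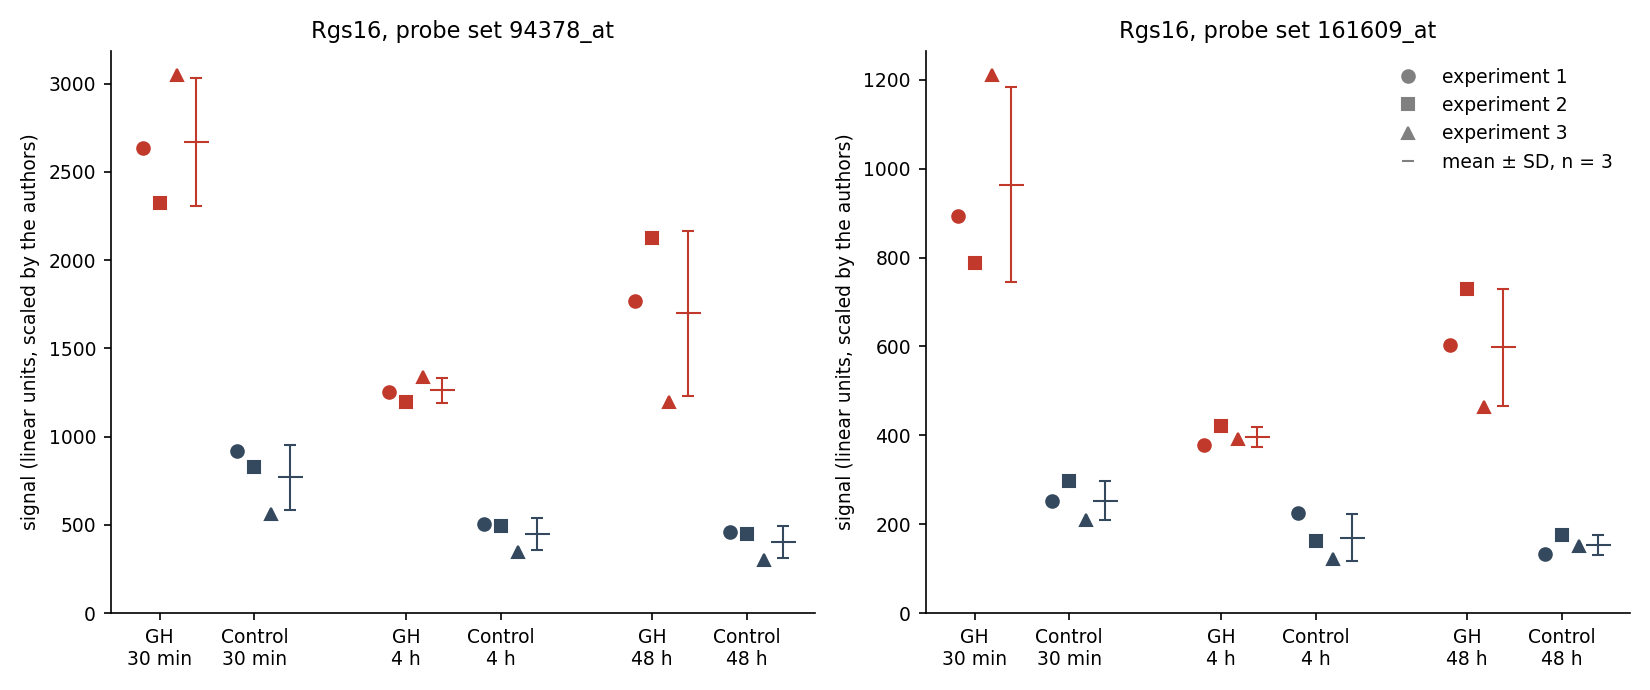
Signal of each Rgs16 probe set (y axis, linear units as scaled by the authors) on the 18 arrays, in GH groups (red) and controls (dark blue) at 30 min, 4 h and 48 h. Symbols are experiments 1 to 3 and bars are mean ± SD of 3 arrays. Every GH array lies above every control array on both probe sets, a separation that the choice of the gene favoured.

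Over all times, no GH array overlapped a control array. Rgs16 was chosen for being higher with GH at each time, so this separation was favoured by the choice. The share of all probe sets separated in this way was not counted. On 94378_at the 9 GH arrays had a lowest signal of 1198.5, a median of 1768.5 and a highest of 3049.6, against 300.7, 496.5 and 920 in the 9 controls. On 161609_at the lowest, median and highest were 377.8, 602.1 and 1210.4 with GH and 121, 175.9 and 296.3 in controls.

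The group means fell in the same order on both probe sets: GH 30 min, GH 48 h, GH 4 h, control 30 min, control 4 h and control 48 h, from high to low. The GH 30 min arrays did not overlap those of GH 48 h on either probe set. GH 48 h and GH 4 h overlapped on 94378_at, where the GH 48 h array of experiment 3 (1198.5) matched the lowest GH 4 h array (1198.6), and did not overlap on 161609_at. Control 30 min and control 4 h overlapped on 161609_at, and control 4 h and control 48 h overlapped on both.

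With GH, the log2 signal of 94378_at at 4 h minus that at 30 min was -1.06 ± 0.24, and it was negative in all 3 experiments (-1.06, -0.94 and -1.17). On 161609_at the same difference was -1.21 ± 0.22. From there the later GH arrays were higher again in most experiments: 48 h minus 4 h was 0.38 ± 0.24 on 94378_at, with 0.49, 0.82 and -0.15 in experiments 1, 2 and 3, and 0.54 ± 0.22 on 161609_at, with 0.64, 0.75 and 0.23. The GH effect itself, GH minus control, was smaller at 4 h than at 30 min by 0.32 ± 0.34 and 0.67 ± 0.32 on 94378_at and 161609_at, and larger at 48 h than at 4 h by 0.54 ± 0.34 and 0.64 ± 0.32. These differences of effects are up to about 2 standard errors and carry no test here, and the effects at 48 h and 30 min differed by 0.21 ± 0.34 and -0.03 ± 0.32. The arrays of conflicting labels were not left out of any difference in this paragraph.

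The probe sets agreed on direction in all 9 pairs of arrays. Their GH minus control differences, 94378_at minus 161609_at within an experiment, averaged -0.04 (SD 0.18, n = 3) at 30 min, 0.31 (SD 0.30) at 4 h and 0.20 (SD 0.28) at 48 h. The widest gap was in experiment 1 at 4 h, where 94378_at gave 1.26 and 161609_at 0.69. At each time the mean gap was no more than about 1 SD over the experiments.

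Within the controls, where the choice of the gene did not use the comparison although it used the same arrays, Rgs16 had a lower signal at the later times. On 94378_at the log2 change was -0.73 ± 0.24 for control 4 h against control 30 min (-0.83, -0.71 and -0.67 by experiment) and -0.89 ± 0.24 for control 48 h against control 30 min (-0.96, -0.85 and -0.85). On 161609_at these were -0.53 ± 0.22 and -0.64 ± 0.22, lower in 3 of 3 experiments each time. None passed the adjustment over all probe sets. For 48 h against 30 min the limma adjusted p was 0.540 on 94378_at and 0.761 on 161609_at, and with the block 0.103 and 0.325. For 4 h against 30 min the limma adjusted p was 1.00 on both without the block, and 0.718 and 0.999 with it. Without the arrays of conflicting labels, 48 h against 30 min was -0.70 on 94378_at and -0.63 on 161609_at (limma adjusted p = 0.921 and 0.949).

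Control 48 h against control 4 h gave -0.15 ± 0.24 on 94378_at and -0.10 ± 0.22 on 161609_at (limma adjusted p = 1.00 for both). The sign of the first rests on 1 array: without the control 48 h array of experiment 3, which is described as control 4 h, it was 0.032. The second was 0.10 without the control 4 h array of experiment 1. Across the array, 11 probe sets (0.0886%) passed for control 4 h against 30 min and 16 (0.129%) for 48 h against 30 min, and with the block 12 (0.0966%) and 42 (0.338%). For 48 h against 4 h, limma called 0 (0.00%), with 512 at an unadjusted p under 0.05, and 1 (0.00805%) with the block.

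Fos, an immediate early gene whose RNA appears soon after a stimulus, was also highest in the 30 min controls. Its signal on 160901_at was 913.6, 1152.3 and 3242.3 in the 30 min controls, 63.2, 52.4 and 65 in the 4 h controls and 39.1, 52.4 and 90.4 in the 48 h controls. Against the 30 min controls it fell, with a log2 change of -4.17 ± 0.39 at 4 h (limma adjusted p = 0.000108) and -4.21 ± 0.39 at 48 h (5.97e-05), and without the arrays of conflicting labels -4.44 ± 0.46 at 48 h (adjusted p = 0.00163). All 4 h and 48 h control signals of Fos were below background, so the size of the fall rests on values near the floor. Among the 30 min controls, experiment 3 had the most Fos and the least Rgs16. The part of whatever moved Fos in the Rgs16 level of the controls was not tested. The other Fos probe set, 161716_at, gave 0.13 ± 0.38 and 0.01 ± 0.38. Its signals, 10.4 to 86.3, were all below background, so these values do not show how Fos RNA behaved.

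**Figure D2:**
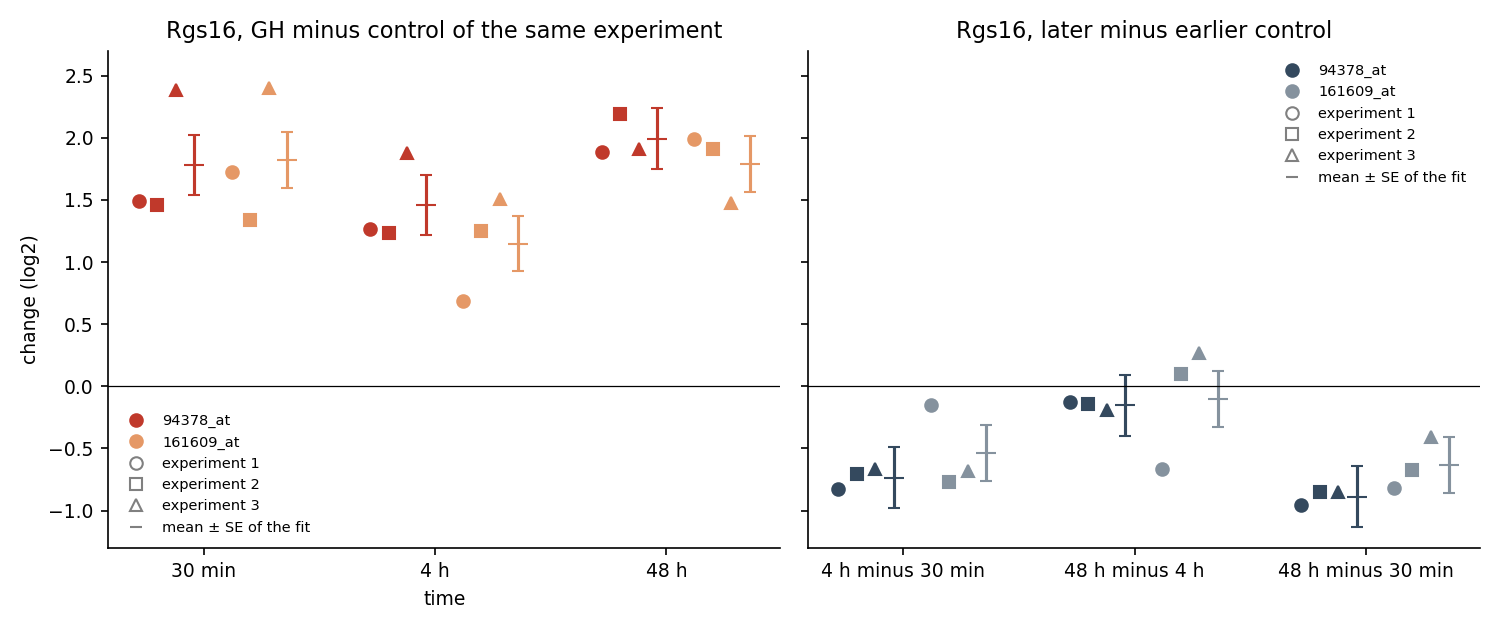
Rgs16 log2 change (y axis) on 94378_at (darker) and 161609_at (lighter): left, GH minus the control of the same experiment at 30 min, 4 h and 48 h; right, later minus earlier control. Symbols are experiments 1 to 3 and bars are the mean ± SE of the fit; all 18 GH differences are above 0, from 0.69 to 2.40, and the control changes against 30 min are all below 0.

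Rgs16 was also higher with GH without the arrays whose labels disagree. With those 3 arrays left out, the GH minus control differences on 94378_at were 1.78, 1.41 and 1.81 at 30 min, 4 h and 48 h, and on 161609_at 1.86, 1.16 and 1.79. With the 3 arrays placed as described instead, they were 1.46, 1.55 and 1.97 on 94378_at and 1.44, 1.19 and 1.93 on 161609_at. The sign was positive each time, and the value that moved furthest was that of 161609_at at 30 min, 1.44 as described and 1.82 as titled.

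No other RGS gene was called higher with GH at any time. The array carries 12 of them on 18 probe sets, of which 12 probe sets had a mean below background and 7 genes had no probe set above it. GH minus control changes ranged from -0.67 to 0.36 at 30 min, -0.67 to 0.55 at 4 h and -0.79 to 0.71 at 48 h, all below the Rgs16 values. Their medians over probe sets were 0.01, 0.02 and 0.07, beside -0.03, 0.02 and 0.02 over all probe sets. Beside the 0.0403%, 0.121% and 0.338% of all probe sets called without the block, limma called 0 of the 18 at any time (0, 2 and 2 at an unadjusted p under 0.05), and with it 1 at 48 h, Rgs2, where 1.27% of all were called. At these shares 18 probe sets would hold few or no calls, so the low counts are no result about the family. Rgs16 was chosen for its GH differences, so its place above the others was favoured by the choice.

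Rgs2, an R4 member that acts chiefly on G alpha q and can also restrain adenylyl cyclase, had lower signals with GH at the later times. At 30 min its signal was 3089, 3021.3 and 3466.1 with GH, against 2865.9, 3759.5 and 3610.4 in controls. At 4 h it was 1845.7, 1823.8 and 2865.8 with GH, against 3367.8, 3620.4 and 3249.4 in controls. At 48 h it was 1718.5, 1911.5 and 2695 with GH, against 3557, 3159.5 and 4034.5 in controls. The groups overlapped at 30 min and not at 4 h or 48 h, and experiment 3 had the highest GH signal each time. The changes were -0.09 ± 0.21 (limma adjusted p = 1.00), -0.67 ± 0.21 (0.382, and 0.114 with the block) and -0.78 ± 0.21 (0.178, and 0.0395 with the block), so Rgs2 fell past the threshold at 48 h with the block only. The test of the difference between its effects at 48 h and 30 min, -0.69 ± 0.29, gave a limma adjusted p of 0.942. Without the 3 arrays of conflicting labels the change at 48 h was -0.69 ± 0.21 (limma adjusted p = 0.344). With the block it was then -0.76 (limma adjusted p = 0.108). Over the other settings its adjusted p at 48 h ran from 0.0395 to 0.997, with the change between -0.97 and -0.55.

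**Figure D3:**
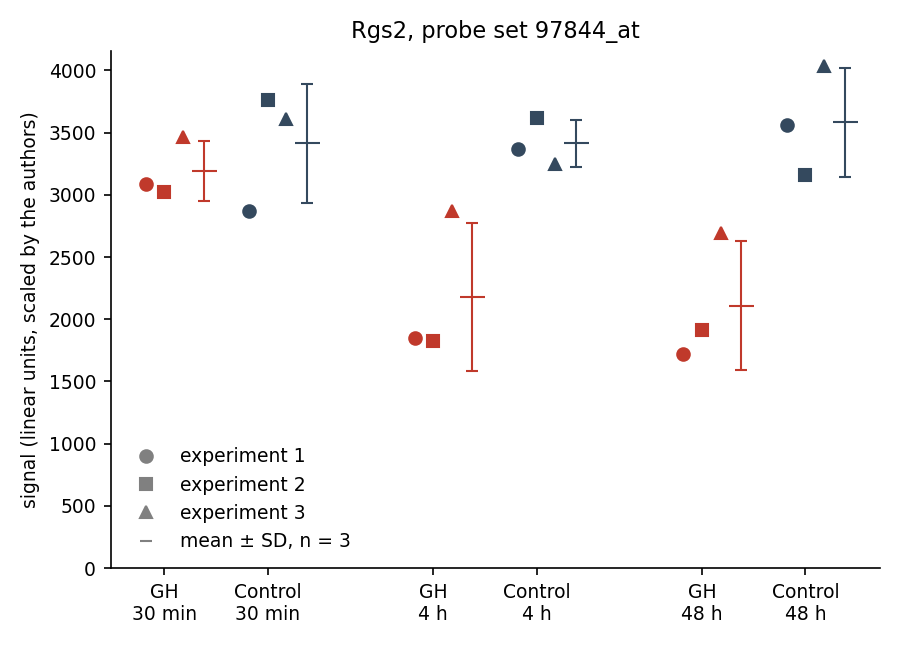
Signal of Rgs2 on its probe set 97844_at (y axis, linear units as scaled by the authors), in GH groups (red) and controls (dark blue). Symbols are experiments 1 to 3 and bars are mean ± SD of 3 arrays; at 4 h and 48 h the GH arrays (1718.5 to 2865.8) lie below all controls of their time.

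Among the other RGS genes with probe sets above background, Rgs3, of the R4 subfamily, changed by -0.26 ± 0.21, 0.04 ± 0.21 and 0.23 ± 0.21 at 30 min, 4 h and 48 h. Rgs19, which interacts with the adaptor GIPC, had 0.07, -0.05 and 0.14 on 103606_r_at and -0.05, 0.24 and -0.03 on 103605_g_at. Rgs14, which also binds Ras-family proteins, had -0.05, 0.16 and -0.10, and Rgs8, the neighbour of Rgs16 on chromosome 1, had 0.04, 0.24 and 0.22, on an _f_at probe set, a kind that may also detect similar transcripts. None of these was past the threshold with or without the block.

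Groups without overlap also occurred in the family, apart from Rgs2 in probe sets with a mean below background. At 4 h, 2 of 18 lay wholly above their controls (Rgs6 94568_at and Rgs9 99907_at) and 2 wholly below (Rgs2 and Rgs5 103294_at), beside 6.26% and 5.13% of all probe sets. At 48 h, 0 of 18 lay above and 3 below (Rgs2 and the Rgs10 probe sets 160629_at and 103384_at), beside 5.23% and 4.92%, and at 30 min none did in either direction. On 160629_at, Rgs10 had 120, 69.4 and 36.7 with GH at 48 h, against 131.1, 128 and 158.9 in controls, but another of its probe sets, 161765_f_at, had 0.18 ± 0.35, so the probe sets disagreed.

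**Figure D4:**
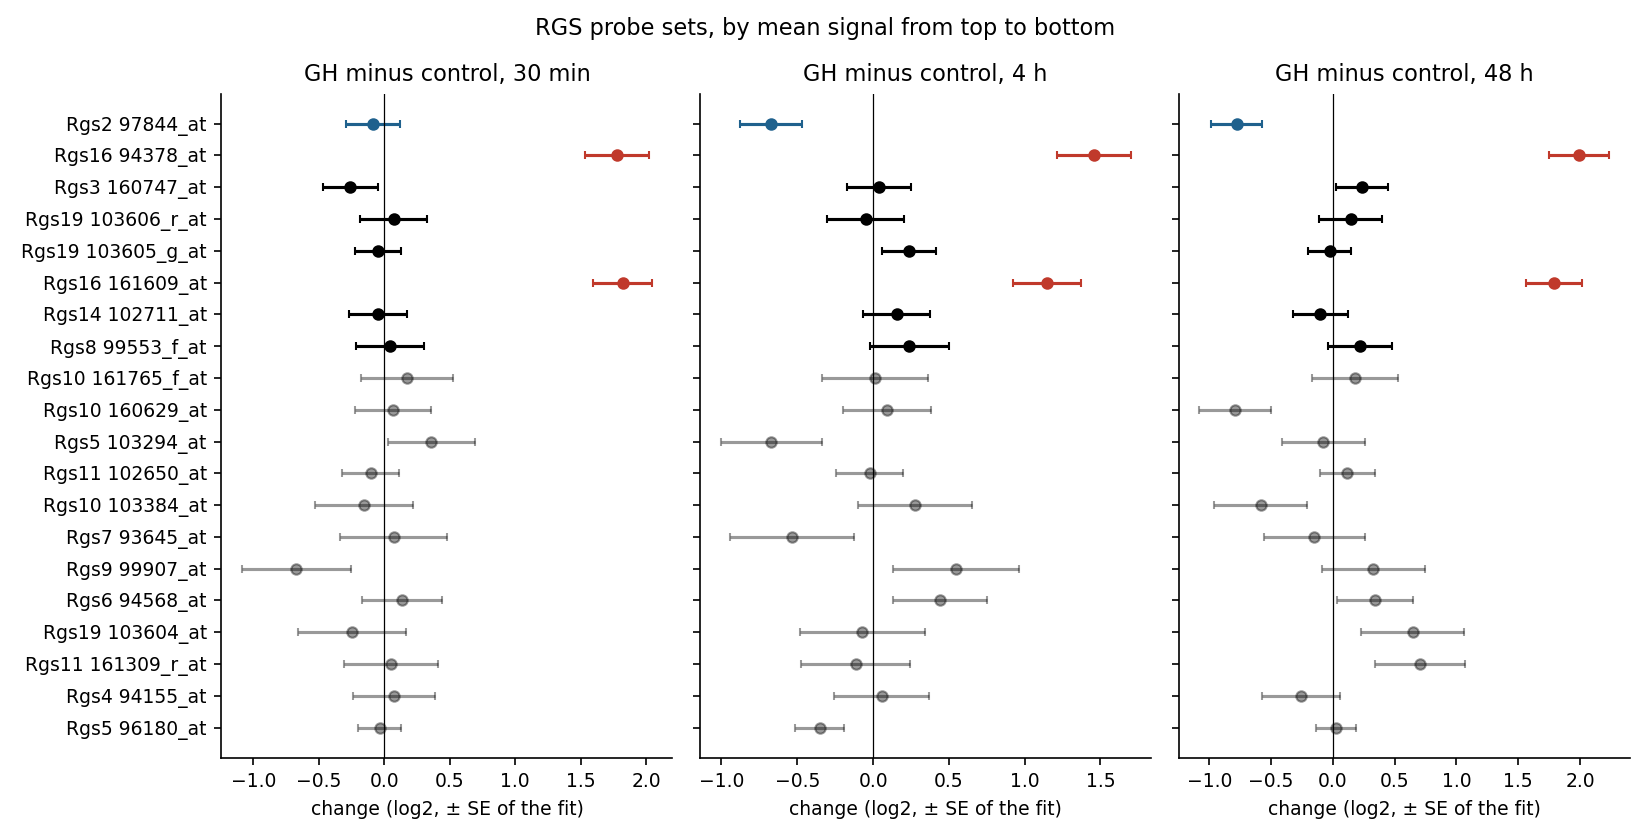
GH minus control log2 change ± SE of the fit (x axis) for each RGS probe set (y axis, from top to bottom by mean signal over the 18 arrays) at 30 min, 4 h and 48 h. Rgs16 is red, Rgs2 blue, other probe sets with a mean above 105.6 black and the rest grey; Rgs16 sits between 1.15 and 1.99 and no other RGS probe set exceeds 0.71.

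Genes around Rgs16 in the G-protein pathway were read in lists of 7 to 32 measured genes. With so few probe sets called overall (0.0403%, 0.121% and 0.338% at 30 min, 4 h and 48 h, and 0.0805%, 0.362% and 1.27% with the block), lists of this size would hold few or no calls at the same share, so their low counts are no result about the pathway. Of other genes with an RGS domain, such as the Wnt scaffold Axin1, 7 of 15 listed were measured and limma called 0 at any time with or without the block (0 at an unadjusted p under 0.05); Axin1, with the lowest p, had -0.45 ± 0.22 at 48 h (adjusted p = 0.781). Of RGS partners and other G-protein modulators, 7 of 14 were measured and 1 rose, Rap1gap at 4 h, which encodes a GTPase activator of the small GTPase Rap1. Its signal at 4 h was 489.2, 540.7 and 493.3 with GH, against 262.5, 103.2 and 142 in controls, a change of 1.54 ± 0.28 (limma adjusted p = 0.0457, with the block 0.0322). The 4 h controls were low: all other arrays were at 326.6 or above. The call was lost when any of the GH 4 h arrays, or the control 4 h array of experiment 2 or 3, was left out, and also with a pseudocount of 1, quantile normalization, the arrays of conflicting labels left out or placed as described, or only the 4 h arrays in the fit. Without the arrays of conflicting labels the change was 1.56 ± 0.34 (limma adjusted p = 0.124), and with the block 1.64 (0.0438).

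Of the G alpha subunits, the substrates of RGS proteins, 14 of 16 were measured and none was called with or without the block (2, 1 and 1 at an unadjusted p under 0.05 at 30 min, 4 h and 48 h). Their medians were -0.07, 0.17 and 0.10, beside -0.03, 0.01 and 0.02 over all genes. Gnai3, encoding a G alpha i subunit, had the lowest p, with 0.68 ± 0.25 at 4 h (limma adjusted p = 0.560). Of the beta and gamma subunits 12 of 17 were measured and none was called (1 unadjusted at each time); Gnb3 had -1.25 ± 0.44 at 30 min (limma adjusted p = 1.00) with all but 3 of its 18 signals below background.

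Of the G-protein-coupled receptors of adipose tissue, 32 of 61 were measured, 9 with a mean above background. None was called without the block (1, 3 and 4 at an unadjusted p under 0.05), and with it 2 of 32 fell at 48 h, beside 1.27% of all probe sets. Mc2r, the corticotropin receptor, had 612.3, 725.9 and 372.4 with GH at 48 h, against 867.1, 1254.6 and 712.3 in controls (-0.72 ± 0.29, limma adjusted p = 0.631, with the block 0.0379). Agtr2, an angiotensin receptor, had 38.8, 4.6 and 134.4 with GH, against 152.5, 67.7 and 182 in controls, mostly near background (-1.17 ± 0.72, limma adjusted p = 0.884, with the block 0.0434), and its other probe set, 161212_r_at, gave 0.22 ± 0.42. Without the arrays of conflicting labels the block gave an adjusted p of 0.140 for Mc2r and 0.0134 for Agtr2 in limma. The lowest p without the block was that of F2r, a thrombin receptor coupled to G alpha q and G alpha i, at 48 h. On 95474_at it had 496.9, 636.8 and 554.2 with GH, against 1590.6, 1481.8 and 882.4 in controls (-1.15 ± 0.26, limma adjusted p = 0.0821, with the block 0.0616). The groups did not overlap there, but the other F2r probe sets gave -0.27 ± 0.21 and -0.22 ± 0.20. Without the control 48 h array of conflicting labels and the other 2 such arrays, 95474_at fell past the threshold, with -1.42 ± 0.24 (limma adjusted p = 0.0279). With the block it had -1.53 (limma adjusted p = 0.00747).

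Further down, none of 22 measured of 32 adenylyl cyclases, phosphodiesterases and protein kinase A genes was called with or without the block (0, 2 and 1 unadjusted), nor any of 13 of 17 phospholipase C and protein kinase C genes (0, 1 and 1). Pde1c, a phosphodiesterase, had 0.68 ± 0.22 at 4 h (limma adjusted p = 0.470) with every signal at 50.4 or less. Itpr2, an inositol trisphosphate receptor, had 445, 508.1 and 383.1 with GH at 4 h, against 679.4, 842.8 and 736.2 in controls, on an _i_at probe set (-0.73 ± 0.18, limma adjusted p = 0.277). Its other probe sets gave -0.58, 0.68 and -0.41, so the sign differed between them.

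Of the genes that cyclic AMP is known to raise, 13 of 19 were measured, with medians of 0.09, 0.17 and -0.13 at 30 min, 4 h and 48 h. No gene passed without the block (2, 3 and 3 at an unadjusted p under 0.05), and with it Fos rose at 30 min and Pck1 fell at 48 h, beside 0.0805% and 1.27% of all probe sets called. Fos had 5528.7, 5408.4 and 7899.7 with GH at 30 min, against 913.6, 1152.3 and 3242.3 in controls (2.02 ± 0.39, limma adjusted p = 0.173, with the block 0.0421). Pck1, encoding a key enzyme of glyceroneogenesis in fat, had 24.8, 35.6 and 152.4 with GH at 48 h, against 190.5, 132.2 and 607 in controls (-1.77 ± 0.50, limma adjusted p = 0.234, with the block 0.0379). Neither passed without the arrays of conflicting labels, which include the Pck1 value of 607. Fos then had 2.10 ± 0.46 at 30 min (limma adjusted p = 0.532), and with the block 1.98 (0.207). Pck1 had -1.18 ± 0.49 at 48 h (limma adjusted p = 0.681), and with the block -1.41 (0.138). The GH minus control change of Fos was 0.22 ± 0.39 at 4 h and 0.64 ± 0.39 at 48 h, and the test of the difference from 30 min did not pass (limma adjusted p = 0.858 and 0.929). Its GH signals were 60.6 to 83.1 at 4 h and 55.1 to 165.4 at 48 h. The controls of both times were all below background, so these changes rest on values near the floor.

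Of the 20 protein-coding genes nearest to Rgs16, 10 on each side in the RefSeq order, 8 were on the array, with 11 probe sets. None was called by limma at any time with or without the block (1 of their changes at an unadjusted p under 0.05 in either fit), and their changes ran from -0.38 to 0.71. On the near sides, Rgs8 is given above, and Npl, a sialic acid lyase gene, had a mean signal of 8.72, below background, so its values of -0.08, -0.07 and 0.05 at 30 min, 4 h and 48 h do not show how its RNA behaved. On the other side Glul, the glutamine synthetase gene, had -0.28, -0.13 and 0.16 on an _r_at probe set and Cacna1e, a calcium channel gene, had -0.32, -0.31 and 0.26 with a mean signal of 24.8, also below background.

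The genes most like Rgs16 over the 18 arrays were sought by the Pearson correlation of log2 signals with the mean of its probe sets, among 6454 probe sets of 5439 genes with a mean above background. The arrays share 6 groups and 3 experiments, so these are descriptions with no p. Zfp36l2, an RNA-binding protein that promotes mRNA decay, came first (r = 0.84), then the stress-induced transcription factor Atf3 (0.81, on an _r_at probe set). Piga, an enzyme of membrane anchor synthesis, had 0.78, Errfi1, an inhibitor of epidermal growth factor receptors, 0.78, Gadd45g, a growth arrest gene, 0.76, and the kinase gene Pim3 0.75. Socs3 (0.73, on an _f_at probe set) and Socs1 (0.70), inhibitors of cytokine receptor signalling, the transcription repressor Bach1 (0.73) and Xbp1 (0.68), a transcription factor of the unfolded protein response, completed the 10. Only 2 probe sets exceeded 0.8, and other probe sets of the same genes gave lower r. Those of Zfp36l2 gave 0.40 (mean signal 518.4) and 0.41 (58.4, below background). Piga had 0.56 on another probe set, Errfi1 0.70, Socs3 0.70 and Bach1 0.36 (mean 60.3, below background). A brighter Atf3 probe set, an _f_at one with a mean of 475.8, gave 0.74, and another gave -0.12 with a mean of 8.87.

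Their courses over time varied. These genes were picked over the same arrays by likeness to Rgs16, which was higher with GH. A rise with GH was thereby favoured, so their changes are given as a description with no p. Zfp36l2 changed by 0.85 ± 0.26, 1.13 ± 0.26 and 0.63 ± 0.26 at 30 min, 4 h and 48 h. Without the arrays of conflicting labels its changes were 0.93 ± 0.27, 1.37 ± 0.27 and 0.56 ± 0.27. Socs3 was high in GH 30 min arrays, at 5097.2, 3551.1 and 4240.7, against 468.1, 454 and 502.8 in controls, and at 48 h its change was 0.34 ± 0.21. Gadd45g changed by 1.06 ± 0.37 at 30 min, 2.27 ± 0.37 at 4 h and 2.13 ± 0.37 at 48 h, so its larger changes came at the later times. Atf3 changed by 1.44 ± 0.32, 1.85 ± 0.32 and 1.80 ± 0.32 on its _r_at probe set. All its control signals there, 27.6 to 97.9, were below background, and its GH signals were 132.9 to 301.5. The mean of this probe set, 128.2, thus exceeded background only through the GH arrays. Its r of 0.81 and its fold changes rest on controls near the floor. The changes of Atf3 on its brighter _f_at probe set are not given here. Without the arrays of conflicting labels, the change of Socs3 at 30 min was 2.97 ± 0.20. Gadd45g then had 2.22 ± 0.43 at 4 h and 2.33 ± 0.43 at 48 h, and Atf3 had 2.11 ± 0.36 and 1.84 ± 0.36.

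Within the 9 GH arrays alone, Gadd45g had r = -0.32 and Xbp1 -0.42 with Rgs16, whereas Pim3 (0.85), Socs1 (0.80), Socs3 (0.78) and Errfi1 (0.78) stayed positive. Within the 9 controls, Errfi1 had 0.92 and Socs1 0.01. Ranked within the GH arrays, 0 of these 10 were among the 10 most like Rgs16, and within the controls 1 was. The most opposite genes were Acsf3, a mitochondrial acyl-CoA synthetase (-0.71), Snapin, a SNARE-associated protein (-0.71), and Dhrs4, a carbonyl reductase (-0.68). The other Acsf3 probe sets gave -0.42 and -0.29. Rgs2 had r = -0.47.

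**Figure D5:**
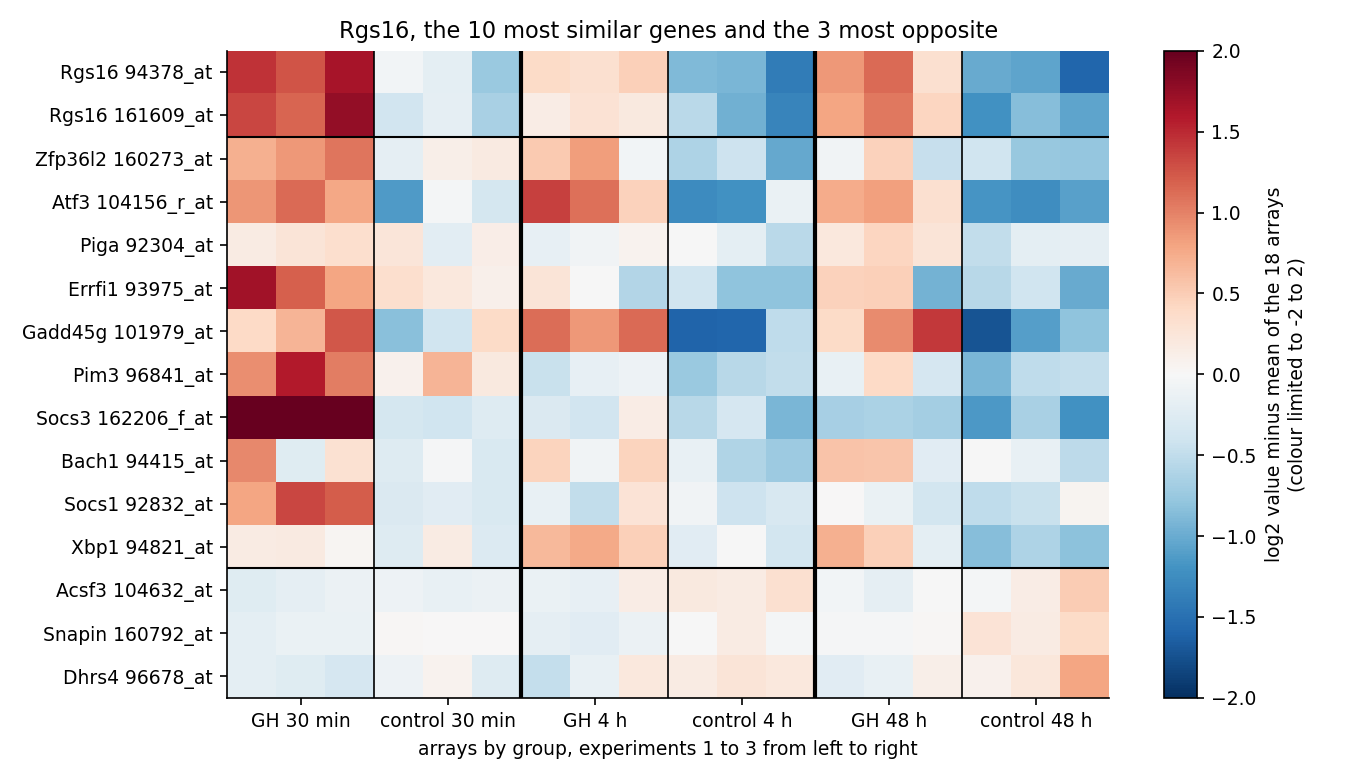
Log2 signal of each probe set minus its mean over the 18 arrays (colour, limited to -2 to 2) for Rgs16, the 10 genes most like it and the 3 most opposite (rows), on arrays grouped by GH and control at each time (columns, experiments 1 to 3 from left to right). Rgs16 is above its mean on all GH arrays, and Socs3 is so chiefly at GH 30 min.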

How the data were processed

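The 18 arrays measured RNA of 3T3-F442A adipocytes in 6 groups of 3, taken from sample titles. The authors deposited 1 signal intensity per probe set and array; summary method and software are not given in the sources used here. The 12422 mouse probe sets were tested after 66 control probe sets were left out. From the deposited values, log2(signal + 25) was computed, 25 being the 20th percentile of signals above 0; fold changes of low signals are understated on that scale. Groups were compared with limma 3.58.1 in R 4.3.3, in 1 model of all arrays with 12 residual degrees of freedom, with Benjamini-Hochberg adjustment over all probe sets and a threshold of 0.05. Scripts were tested on simulated data.

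The experiment number, which the labels give, was also fitted as a block (10 degrees of freedom). Arrays of the same experiment deviated together in 9 of 9 GH and control pairs (r 0.15 to 0.46), although 1 of them, experiment 2 at 48 h (0.15), reached 0.21 with an array numbered differently. Leaving out the 3 arrays of conflicting labels with the block was chosen after seeing the data.

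Platform symbols were unique for 10833 probe sets, several for 396 and missing for 1193; 10817 matched a RefSeq gene and none changed. A gene in a list is read by its probe set of highest mean signal. Values were given for all Rgs16 probe sets, RGS genes past the threshold or brightest, list genes past the threshold or else of lowest p, the 10 most like and 3 most opposite genes, and the nearest neighbours. Members and lists were chosen with earlier results of these data known. Alternatives changed the block, the pseudocount (1 or 100), a filter on mean signal (59.8), quantile normalization, the arrays with conflicting labels, the arrays in the fit, and each array. The number of arrays limits the precision.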

Additional observations from a re-analysis of the deposited data

How the results depend on the processing

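Rgs16 was higher with GH at every time under all settings tried: 1.46 to 1.92 at 30 min, 1.29 to 1.55 at 4 h and 1.81 to 2.22 at 48 h on 94378_at, and 1.44 to 1.95, 0.90 to 1.35 and 1.45 to 1.95 on 161609_at. At 48 h it was 1.82 and 1.45 with a pseudocount of 100, and on 94378_at 1.81 without the 3 arrays of conflicting labels and 1.81 to 2.22 leaving out each array. Its control differences passed nowhere. For control 48 h minus 4 h the sign turned on 94378_at without those 3 arrays (0.032), with them placed as described (0.16) and without the control 48 h array of experiment 3 (0.032), and on 161609_at without the control 4 h array of experiment 1 (0.10); leaving out each array gave -0.32 to 0.032 and -0.29 to 0.10. The cause was not tested.

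Counts of called probe sets moved more. With the replicate block, GH calls at 30 min, 4 h and 48 h were 10, 45 and 158, against 5, 15 and 42, and control calls 1 (48 h against 4 h) and 42 (48 h against 30 min), against 0 and 16. A pseudocount of 1 gave 27 at 48 h and 5 for control 4 h against 30 min; 100 gave 8 at 30 min and 1 for control 48 h against 4 h. Without the 3 arrays there were 3 at 30 min, 32 at 4 h and 2 for control 48 h against 4 h. Placed as described, there were 0 at 30 min, 2 at 48 h and, for the controls, 0, 2 and 2 (4 h against 30 min, 48 h against 4 h, 48 h against 30 min). With only the compared arrays, which leaves fewer residual degrees of freedom, they were 3, 0 and 0 with GH, and 3 and 4 for controls against 30 min. Leaving out each array gave 7 to 38 at 4 h, 16 to 64 at 48 h and, for the controls, 6 to 9, 0 to 2 and 7 to 13. The highest counts, 38 and 64, came without the GH 4 h or GH 48 h array of experiment 3.

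Genes called in the RGS and G-protein lists numbered 0, 1 and 0 at 30 min, 4 h and 48 h, and with the block 1 and 4 at 30 min and 48 h. At 4 h they were 0 with a pseudocount of 1, quantile normalization, the 3 arrays left out or placed as described, or only the compared arrays. There was 1 at 30 min with a pseudocount of 100 and 1 at 48 h without the 3 arrays, and leaving out each array gave 0 to 1 at each time. Of the 10 genes most like Rgs16, 0 were shared within the GH arrays, 1 within the control arrays, and 7 to 9 under the other settings.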
